A study of Mus musculus with 17 samples.

Results

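Trp53, which encodes the transcription factor p53, and 9 genes that p53 is known to activate were followed in RNA sequencing of 17 mouse tumours. The genes were Cdkn1a, Mdm2, Bbc3, Ccng1, Zmat3, Sesn1, Sesn2, Btg2 and Bax. They were chosen by symbol from the textbook p53 pathway, and these 10 of the 23284 gene symbols counted were all detected in every tumour. The labels call each sample a pituitary tumour of neuroendocrine type from an engineered mouse. Of the tumours, 8 were labelled Rb1/Trp53/Crebbp and 9 were labelled Rb1/Trp53, so every tumour carried engineered alleles of Rb1 and of Trp53 itself, and the groups differ in the Crebbp allele. Rb1 encodes the retinoblastoma protein, and Crebbp encodes CBP, a histone acetyltransferase and transcriptional coactivator that p53 is known to bind. The sources used here do not give the kind of allele, the promoter that drives any Cre, or the age, sex and number of mice. Separate mice are not stated for separate tumours, so a p-value here measures the spread among samples, which may share an animal. The question of the study was which genes depend on Crebbp.

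p53 is held at a low level by Mdm2, the ubiquitin ligase that marks it for degradation, and Mdm2 is itself a p53 target, which closes a feedback loop. After DNA damage or oncogene stress p53 accumulates and switches on genes of cell cycle arrest (Cdkn1a, Btg2, Ccng1), of cell death (Bbc3, Bax) and of the response to metabolic and oxidative stress (Sesn1, Sesn2), and Zmat3, an RNA-binding regulator of splicing. Loss of Rb1 and Trp53 together gives endocrine tumours in mice, among them tumours of the intermediate lobe of the pituitary and of the thyroid C cells, and p53 targets are also transcribed at a basal level by factors other than p53.

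A p53 binding site is a pair of 10-base elements, the p53 consensus decamer. The promoters of Cdkn1a, Mdm2 and Ccng1, the target genes whose levels varied most closely together, and of Trp53 are shown with every match to the decamer in capitals. Each is a 300-base window, 250 bases before to 50 after an annotated start, 5′ to 3′ on the gene's strand, from RefSeq for GRCm38.p6. These sequences are for reading beside the values: the counts were made on mm9, no mm9 position is given, and binding was not measured.
Cdkn1a, chr17:29090729-29091028, plus strand: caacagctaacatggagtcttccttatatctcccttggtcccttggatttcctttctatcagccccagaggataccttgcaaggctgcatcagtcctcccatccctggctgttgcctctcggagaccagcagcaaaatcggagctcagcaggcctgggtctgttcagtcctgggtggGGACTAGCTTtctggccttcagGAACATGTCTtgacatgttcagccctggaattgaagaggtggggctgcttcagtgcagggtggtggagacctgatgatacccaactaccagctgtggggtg
Mdm2, chr10:117710709-117711008, minus strand: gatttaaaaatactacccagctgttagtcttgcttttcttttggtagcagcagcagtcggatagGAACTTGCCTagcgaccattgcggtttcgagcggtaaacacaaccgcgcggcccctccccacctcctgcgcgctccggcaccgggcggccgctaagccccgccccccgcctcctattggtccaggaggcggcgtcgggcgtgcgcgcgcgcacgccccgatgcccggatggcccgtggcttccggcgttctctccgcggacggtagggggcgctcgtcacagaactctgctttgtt
Ccng1, chr11:40755237-40755536, minus strand: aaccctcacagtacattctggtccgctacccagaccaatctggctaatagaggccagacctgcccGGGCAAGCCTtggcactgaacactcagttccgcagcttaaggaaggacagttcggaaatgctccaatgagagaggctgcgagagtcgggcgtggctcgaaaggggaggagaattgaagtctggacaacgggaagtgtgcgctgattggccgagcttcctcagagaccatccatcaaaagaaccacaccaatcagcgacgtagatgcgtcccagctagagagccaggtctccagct
Trp53, chr11:69580109-69580408, plus strand: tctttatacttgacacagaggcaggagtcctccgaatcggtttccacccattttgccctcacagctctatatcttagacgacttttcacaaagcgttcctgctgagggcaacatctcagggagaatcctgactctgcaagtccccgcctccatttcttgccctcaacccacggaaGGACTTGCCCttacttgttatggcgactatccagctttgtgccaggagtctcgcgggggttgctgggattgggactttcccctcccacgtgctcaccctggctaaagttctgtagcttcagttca
In the Cdkn1a window the decamers GGACTAGCTT and GAACATGTCT began 73 and 51 bases before the start. The Mdm2 window held GAACTTGCCT 186 bases before the start, the Ccng1 window GGGCAAGCCT 185 bases before it, and the Trp53 window GGACTTGCCC 75 bases before it. A window was found for 9 of the 10 genes, all but Zmat3, and 6 of these 9 held at least 1 decamer, Bax and Sesn1 being the others. Of all 27025 genes with a window, 9.55% held one. The decamer reads the same class of letters on both strands, so each match counts once. A pair spaced as in a full site occurred in 24 of 32851 windows (0.0731%), one of which was the Cdkn1a window shown. No decamer was present in the 3 windows of Bbc3 or in those of Btg2 and Sesn2. The same held for the window of another annotated Cdkn1a start, which lies downstream of the one shown (chr17:29093519-29093818), and for another Sesn1 window, chr10:41810324-41810623. This says only that these letters are not in those windows.

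The tumours fell into 2 sets by their dominant hormone gene, and genotypes were compared within each set. In 10 libraries Pomc, the hormone precursor of pituitary melanotrophs and corticotrophs, had more counts than Calca, the calcitonin gene of thyroid C cells (Pomc-high: 4 Rb1/Trp53/Crebbp and 6 Rb1/Trp53). In the other 7 Calca had more (Calca-high: 4 Rb1/Trp53/Crebbp and 3 Rb1/Trp53). The sets were read off the counts and are no grouping made by the study. Markers other than the 2 hormone genes that define the sets followed the same line. Tbx19, Pax7 and Crhr1 of melanotrophs and corticotrophs summed to 508 to 700 CPM (a level scaled to the total of each library) in Pomc-high and 0.304 to 1.42 CPM in Calca-high libraries, and the anterior lobe hormone genes to at most 0.552 CPM in Calca-high libraries. The C-cell markers Calcb, Nkx2-1, Ret and Gfra4 summed to 61.9 to 138 CPM in Pomc-high and 505 to 1160 CPM in Calca-high libraries, which the labels also call pituitary. Gene counts per library ranged from 8328297 to 28140755, with a median of 13456360, and the 10 genes had between 123 and 5666 counts in each library. In the Calca-high set the depths of the genotypes did not overlap, with 8328297 to 15490074 counts in Rb1/Trp53/Crebbp and 20361712 to 28140755 in Rb1/Trp53. The level of Crebbp cannot check the labels: it stood at 52.1 ± 8.19 CPM in Rb1/Trp53/Crebbp (SD, n = 4) and 73.0 ± 25.3 CPM in Rb1/Trp53 (SD, n = 6) of the Pomc-high set. In the Calca-high set it was higher in the libraries labelled Rb1/Trp53/Crebbp, at 78.8 ± 10.8 CPM (SD, n = 4), than in those labelled Rb1/Trp53, at 52.5 ± 3.86 CPM (SD, n = 3; edgeR adjusted p = 0.00723). A count per gene does not show which exons the reads came from, so the genotypes below rest on the labels alone, for Crebbp and for Trp53.

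**Figure D1:**
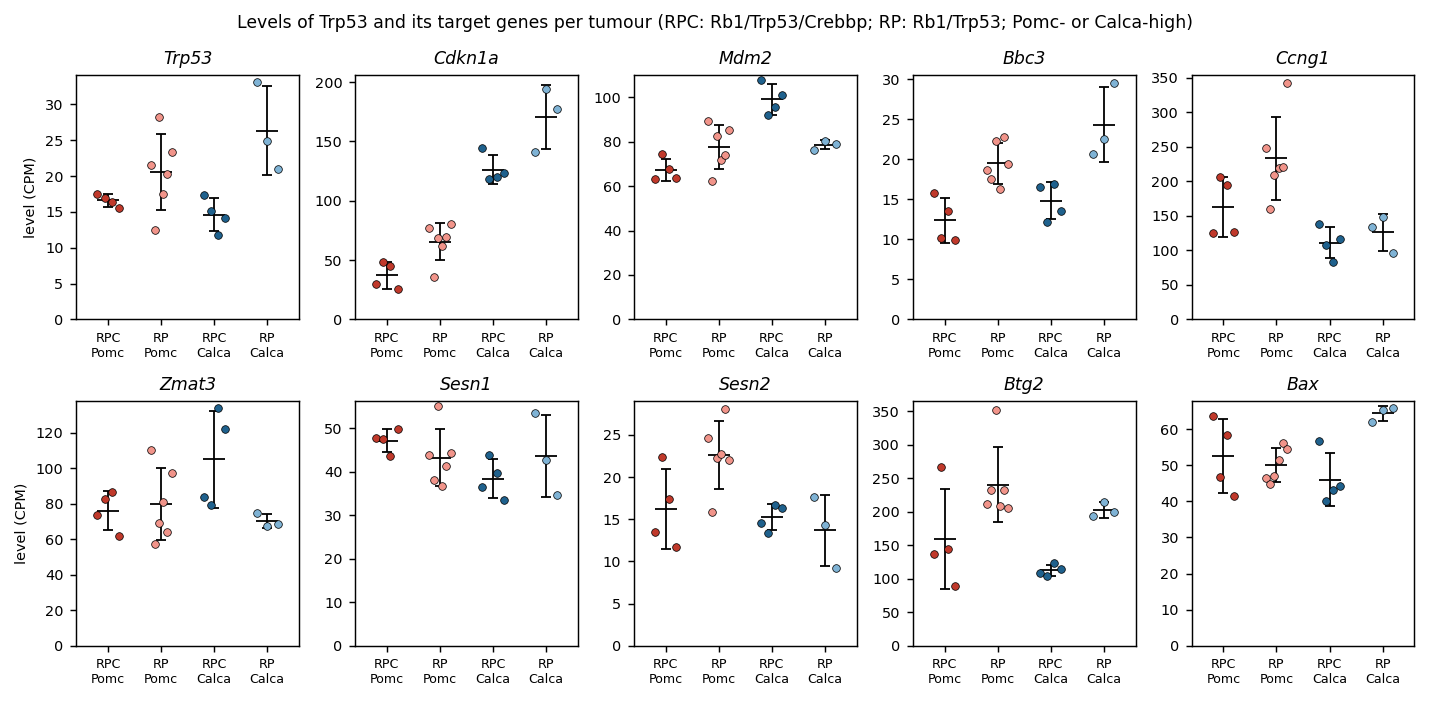
Level of each of the 10 genes in every tumour, in CPM on a linear axis from 0, for Rb1/Trp53/Crebbp (RPC) and Rb1/Trp53 (RP) in the Pomc-high (Pomc) and Calca-high (Calca) sets; points are tumours and bars the mean ± SD. Cdkn1a separates the sets, with 25.7 to 80.0 CPM in Pomc-high and 118 to 194 CPM in Calca-high tumours, and Bbc3 separates the libraries labelled by genotype within each set.

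Among the Pomc-high tumours 1 of the 10 genes passed the test between genotypes. Bbc3, which encodes the death activator PUMA, was lower in the tumours labelled Rb1/Trp53/Crebbp, and Trp53 itself did not pass. A log2 fold change here sets Rb1/Trp53/Crebbp over Rb1/Trp53, fitted on counts with edgeR's quasi-likelihood test, and a gene is called at a Benjamini-Hochberg adjusted p under 0.05 over all genes tested. By this rule 8.42% of the 14010 genes tested were called, 3.15% higher and 5.26% lower, so 1 of 10 is near the background. All 10 genes passed the low-count filter here and in each later comparison. The median log2 fold change of the 10 was -0.36, against 0.01 over all genes, and 8 of the 10 values were negative.

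Trp53 had 17.5, 17, 16.4 and 15.5 CPM in the 4 Rb1/Trp53/Crebbp tumours, against a lowest of 12.5, a median of 20.9 and a highest of 28.2 CPM in the 6 Rb1/Trp53 tumours. The Rb1/Trp53/Crebbp values lie close together inside the Rb1/Trp53 range, and the fold change was -0.28 ± 0.18 (log2 ± SE, adjusted p = 0.351). Wrap53, the neighbour that starts beside Trp53 on the opposite strand, had 16.7 ± 2.69 CPM in Rb1/Trp53/Crebbp (SD, n = 4) and 14.0 ± 1.16 CPM in Rb1/Trp53 (SD, n = 6), and was called in no comparison. The strand setting of the counting is not given, so reads of overlapping genes on opposite strands could not be separated, although the GENCODE vM21 exons of Trp53 and Wrap53 share no base. Mdm2, the inhibitor of p53, had 63.1, 74.3, 67.8 and 63.9 CPM in Rb1/Trp53/Crebbp and 62.5 to 89.2 CPM, with a median of 78.3, in Rb1/Trp53. Those ranges overlap, and the fold change was -0.18 ± 0.10 (adjusted p = 0.277).

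Of the arrest genes, Cdkn1a, which encodes the cyclin-dependent kinase inhibitor p21, had 29.4, 48.1, 45.3 and 25.7 CPM in Rb1/Trp53/Crebbp, against a lowest of 35.9, a median of 69.3 and a highest of 80.0 CPM in Rb1/Trp53. A single Rb1/Trp53 tumour, T5, lies inside the Rb1/Trp53/Crebbp range, and the other 5 lie above it. The fold change of -0.79 ± 0.23 missed the threshold (adjusted p = 0.0593). Without T5 of Rb1/Trp53 the adjusted p was 0.0115, without T6 of Rb1/Trp53/Crebbp 0.0442, and with DESeq2 0.00706. Leaving out any other library gave no call (adjusted p up to 0.141), and the other settings reached adjusted p of 0.13. Btg2, an antiproliferative cofactor of mRNA decay, had 137, 266, 144 and 89.7 CPM in Rb1/Trp53/Crebbp and 206 to 352 CPM, with a median of 222, in Rb1/Trp53. All but the Rb1/Trp53/Crebbp tumour T6 lie below the Rb1/Trp53 range, and the fold change was -0.57 ± 0.27 (adjusted p = 0.209). Without that T6 the adjusted p was 0.0176, and leaving out any other library gave no call (adjusted p up to 0.372). Ccng1, which encodes cyclin G1, had 125, 207, 195 and 126 CPM in Rb1/Trp53/Crebbp and 160 to 342 CPM, with a median of 220, in Rb1/Trp53 (-0.49 ± 0.21, adjusted p = 0.162).

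Of the death genes, Bbc3 had 15.8, 10.2, 13.5 and 9.97 CPM in Rb1/Trp53/Crebbp, against a lowest of 16.3, a median of 19.0 and a highest of 22.8 CPM in Rb1/Trp53. The groups do not overlap, which 9.73% of all genes tested also show, and the fold change was -0.64 ± 0.15 (adjusted p = 0.0236). Without T6 or T8 of Rb1/Trp53/Crebbp the adjusted p was 0.0577 or 0.0573. Bax, the pore-forming protein of the mitochondrial death pathway, had 63.6, 46.8, 58.5 and 41.6 CPM in Rb1/Trp53/Crebbp and 44.7 to 56.3 CPM in Rb1/Trp53, where the Rb1/Trp53/Crebbp values run past both ends of the Rb1/Trp53 range (0.09 ± 0.12, adjusted p = 0.70). The sestrins and Zmat3 did not pass either. Sesn2, a leucine-sensing inhibitor of mTORC1, had 13.5, 22.4, 17.4 and 11.7 CPM in Rb1/Trp53/Crebbp and 15.8 to 28.1 CPM in Rb1/Trp53 (-0.45 ± 0.19, adjusted p = 0.16). It passed without T6 of Rb1/Trp53/Crebbp (adjusted p = 0.0477), but not without any other library (adjusted p up to 0.354). Its relative Sesn1 had 43.5 to 49.9 CPM in Rb1/Trp53/Crebbp and 36.8 to 55.2 CPM in Rb1/Trp53 (0.15 ± 0.11, adjusted p = 0.424). Zmat3, an RNA-binding zinc finger protein that acts in splicing, had 61.9 to 86.3 CPM in Rb1/Trp53/Crebbp and 57.2 to 110 CPM in Rb1/Trp53 (-0.05 ± 0.17, adjusted p = 0.898).

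Few markers of other cells were called between genotypes in these tumours, 1 of 7 endothelial, 1 of 8 macrophage and 0 of 6 fibroblast markers tested, and the sums of these lists overlapped. Their median log2 fold changes were -0.941, -0.895 and -0.4, so the few calls do not show a like tissue makeup. The 8 endothelial markers summed to 19.4 to 49.2 CPM in Rb1/Trp53/Crebbp and 36.8 to 62.7 CPM in Rb1/Trp53, and the 8 macrophage markers to 25.4 to 148 CPM in Rb1/Trp53/Crebbp and 88.7 to 277 CPM in Rb1/Trp53. The 5 T and NK cell markers summed to at most 0.426 CPM in any of these tumours, with Nkg7 at 0 in all of them. T8 of Rb1/Trp53/Crebbp stood apart, with 341 CPM of posterior lobe and astroglial markers, against 5.24 to 48.4 CPM in the other Pomc-high tumours. Its melanotroph and corticotroph markers were lowest, at 94300 CPM against 181000 to 319000 CPM. It also had the lowest Bbc3, Cdkn1a, Btg2, Sesn2 and Bax of the set, and a link to its makeup was not tested. Neuroendocrine markers, 5 genes that the tumour cells express, did not overlap in sum, with 1 of 5 called lower. They summed to 5940 to 8160 CPM in Rb1/Trp53/Crebbp and 8870 to 10900 CPM in Rb1/Trp53. In bulk tumour RNA fewer cells of a type and less RNA per cell cannot be told apart. With the log2 summed endothelial, macrophage and fibroblast markers as a covariate 9.29% of all genes were called, 4.5% lower. Among them were 4 of the 10 genes, all lower in Rb1/Trp53/Crebbp: Bbc3, Cdkn1a at -1.17 (adjusted p = 0.0175), Sesn2 at -0.82 (adjusted p = 0.0211) and Btg2 at -1.08 (adjusted p = 0.0265). The covariate goes partly with the genotype here. The endothelial and macrophage sums of T5, T6 and T7 of Rb1/Trp53/Crebbp lay below every Rb1/Trp53 value, and those of T8 did not. This fit therefore cannot cleanly tell marker content and genotype apart.

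Among 47 other p53 targets tested in the Pomc-high tumours 1 rose and 5 fell (12.8% called, against 8.42% of all genes), with a median of -0.07. Of the 8 further arrest genes 3 fell (37.5% called). Ptprv, a receptor tyrosine phosphatase gene, had 0.991 ± 0.178 CPM in Rb1/Trp53/Crebbp (SD, n = 4) and 5.30 ± 1.39 CPM in Rb1/Trp53 (SD, n = 6), a fold change of -2.40 ± 0.28 (adjusted p = 0.000419). Gadd45a, a growth arrest and DNA damage protein, had 32.0 ± 5.55 CPM in Rb1/Trp53/Crebbp and 53.7 ± 4.22 CPM in Rb1/Trp53 (-0.72 ± 0.12, adjusted p = 0.00296). Sfn, which encodes 14-3-3 sigma, fell by 1.66 ± 0.45 (adjusted p = 0.0382), a call lost on leaving out any of 8 of the 10 libraries (adjusted p 0.0535 to 0.0995). None of 12 cell death targets passed. Among the genes of metabolism and secretion Ephx1, an epoxide hydrolase, fell by 1.13 ± 0.13 (adjusted p = 0.000419). Of 5 repair genes Rrm2b, a ribonucleotide reductase subunit, rose by 0.35 ± 0.10 (adjusted p = 0.0423), a call lost without any of 7 libraries (adjusted p 0.0671 to 0.0977). None of 14 upstream regulators of p53, among them the kinases Atm and Chek2 and the Mdm2 partner Mdm4, passed the test, and their median was 0.00. Trp73, the p53 family member p73, fell: it had 2.43 ± 0.356 CPM in Rb1/Trp53/Crebbp and 6.82 ± 1.81 CPM in Rb1/Trp53 (-1.47 ± 0.25, adjusted p = 0.00449).

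Of 15 genes related by sequence or pathway to the 10, 1 rose and 4 fell in the Pomc-high tumours (33.3% called, against 8.42% of all genes). Bcl2l1, which encodes the survival protein Bcl-xL, had 100 ± 12 CPM in Rb1/Trp53/Crebbp (SD, n = 4) and 146 ± 10.1 CPM in Rb1/Trp53 (SD, n = 6; -0.52 ± 0.09, adjusted p = 0.00542). Btg1, the close relative of Btg2, fell by 0.54 ± 0.11 (adjusted p = 0.0113). Hrk and Bmf, death activators of the same BH3-only class as Bbc3, fell by 0.92 ± 0.21 (adjusted p = 0.0183) and by 0.91 ± 0.22 (adjusted p = 0.0224), the second call being lost without T7 of Rb1/Trp53/Crebbp (adjusted p = 0.0691). With the marker covariate neither was called, Hrk at -0.63 (adjusted p = 0.10) and Bmf at -0.87 (adjusted p = 0.0764), and the joint fit of all groups did not call Hrk (adjusted p = 0.131). The genes that fell in this list thus include both an inhibitor and activators of cell death.

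Among the Calca-high tumours 7 of the 10 genes passed the test, 5 lower and 2 higher in the tumours labelled Rb1/Trp53/Crebbp. Trp53, Cdkn1a, Btg2, Bbc3 and Bax fell, and Mdm2 and Zmat3 rose. Over the whole transcriptome 36.2% of 14797 genes were called, 19.1% higher and 17.1% lower. The median of the 10 was -0.29, against -0.02 over all genes, and 6 of the 10 genes did not overlap between genotypes, as did 44.4% of all genes. The groups here hold 4 and 3 tumours that also differ without overlap in depth and in several lists of tissue markers, and their fold changes followed transcript length, as given below. The share of reads assigned to no gene did not overlap either. It was 18.5% to 21.7% in Rb1/Trp53/Crebbp and 15.9% to 16.5% in Rb1/Trp53, and its part in the fold changes was not tested.

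Trp53 had 17.4, 15.1, 11.8 and 14.1 CPM in the 4 Rb1/Trp53/Crebbp tumours, against 33.1, 24.9 and 21.0 CPM in the 3 Rb1/Trp53 tumours. Every Rb1/Trp53/Crebbp value lies below every Rb1/Trp53 value, and the fold change was -0.84 ± 0.19 (adjusted p = 0.0116). The call held on leaving out each of the 7 libraries in turn, with fold changes from -0.98 to -0.64. Wrap53 stood at 17.5 ± 1.89 CPM in Rb1/Trp53/Crebbp (SD, n = 4) and 17 ± 1.8 CPM in Rb1/Trp53 (SD, n = 3). Mdm2 went the other way, with 108, 92.1, 95.6 and 101 CPM in Rb1/Trp53/Crebbp, against 76.4, 80.5 and 78.9 CPM in Rb1/Trp53. These groups do not overlap either, and the fold change was 0.35 ± 0.08 (adjusted p = 0.0143), called without each library in turn.

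Btg2 had 108, 104, 123 and 114 CPM in Rb1/Trp53/Crebbp, against 193, 215 and 199 CPM in Rb1/Trp53. Values within each genotype lie close together with a wide gap between them (-0.83 ± 0.09, adjusted p = 0.00111), and Btg2 was the single gene of the 10 called under every other setting tried here. Cdkn1a had 144, 118, 120 and 123 CPM in Rb1/Trp53/Crebbp, against 141, 194 and 177 CPM in Rb1/Trp53. The highest Rb1/Trp53/Crebbp value passes the lowest Rb1/Trp53 value, and the fold change of -0.42 ± 0.13 (adjusted p = 0.0341) missed the threshold without T3 or T4 of Rb1/Trp53 or without T2, T3 or T4 of Rb1/Trp53/Crebbp (adjusted p 0.0676 to 0.124). Ccng1 had 83.5 to 138 CPM in Rb1/Trp53/Crebbp and 96.7 to 148 CPM in Rb1/Trp53 and was not called (-0.17 ± 0.20, adjusted p = 0.539).

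Bbc3 had 16.6, 12.2, 16.9 and 13.6 CPM in Rb1/Trp53/Crebbp, against 20.7, 22.6 and 29.6 CPM in Rb1/Trp53. As in the Pomc-high set no value is shared between the genotypes, and the fold change was -0.70 ± 0.17 (adjusted p = 0.0149), called without each library in turn. Bax had 56.6, 40.0, 43.1 and 44.3 CPM in Rb1/Trp53/Crebbp, against 62.1, 65.3 and 65.9 CPM in Rb1/Trp53, again without overlap (-0.47 ± 0.12, adjusted p = 0.0205), and without T3 of Rb1/Trp53 its adjusted p was 0.0633. Zmat3 had 83.9, 79.4, 134 and 122 CPM in Rb1/Trp53/Crebbp, against 74.9, 67.3 and 68.7 CPM in Rb1/Trp53. All of its Rb1/Trp53/Crebbp values are higher, with T3 and T4 far above the other two, and the call (0.59 ± 0.19, adjusted p = 0.0405) was lost without T3 or T4 of Rb1/Trp53/Crebbp or without any of the 3 Rb1/Trp53 libraries (adjusted p 0.0713 to 0.114). Sesn1 had 33.5 to 43.9 CPM in Rb1/Trp53/Crebbp and 34.7 to 53.4 CPM in Rb1/Trp53 (-0.17 ± 0.16, adjusted p = 0.435), and Sesn2 had 13.4 to 16.7 CPM in Rb1/Trp53/Crebbp and 9.23 to 17.6 CPM in Rb1/Trp53 (0.16 ± 0.21, adjusted p = 0.583). Without T3 of Rb1/Trp53 4 of the 10 genes were called, and 23.9% of all genes.

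**Figure D2:**
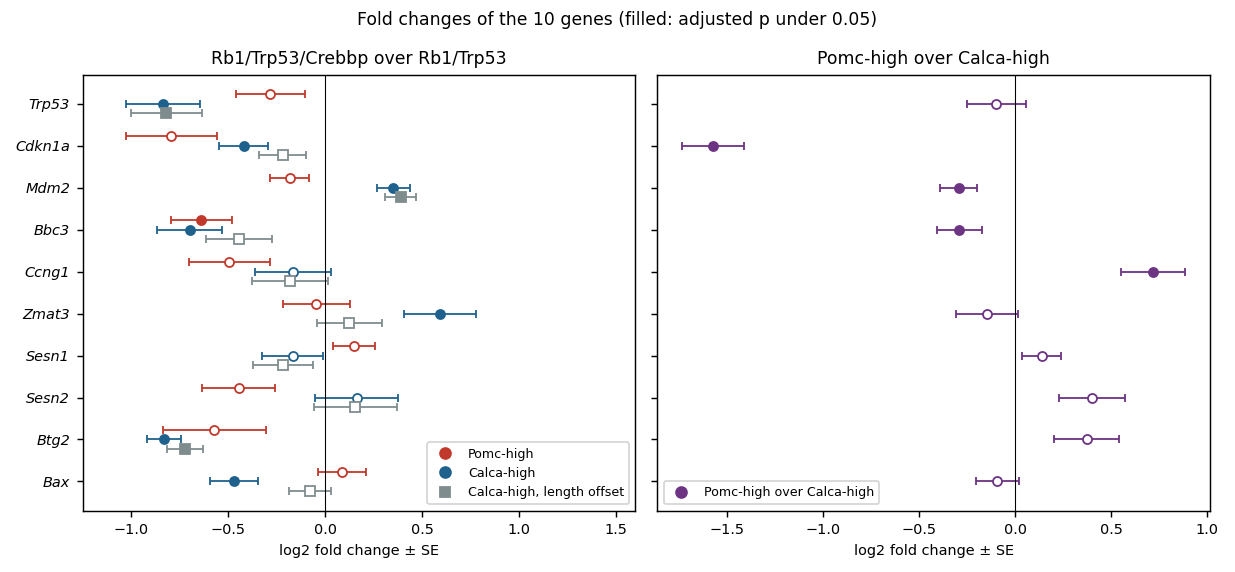
Log2 fold change ± SE of the 10 genes, left for Rb1/Trp53/Crebbp over Rb1/Trp53 in Pomc-high tumours, in Calca-high tumours and in Calca-high tumours with the length offset, right for Pomc-high over Calca-high; filled symbols have an adjusted p under 0.05. Bbc3 lies near -0.64 and -0.70 in the Pomc-high and Calca-high sets. The points of Mdm2, Bax, Zmat3, Sesn1 and Sesn2 lie on opposite sides of 0 in the 2 sets. Cdkn1a is the gene farthest from 0 between the sets, at -1.57.

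The Calca-high fold changes followed transcript length across the whole table. Their Spearman correlation with the longest annotated transcript of a gene was 0.442 across genes, which are not independent replicates, against -0.0414 in the Pomc-high tumours. With the genes cut by length into 3 groups of equal size, the shortest had a median of -0.29, with 4.75% higher and 30.6% lower, and the longest a median of 0.30, with 38.7% higher and 6.38% lower. The direction of several of the 10 genes goes with their length: Bax (1100 bases), Bbc3 (1814) and Cdkn1a (2080) are in the short group and fell, and Zmat3 (7797) is in the long group and rose. With a length trend fitted in each library and used as an offset, an alternative chosen after seeing the data, 24.7% of all genes and 3 of the 10 were called, so the count is near that background. Trp53 (3275 bases) stayed lower at -0.82 ± 0.18 (adjusted p = 0.017), Btg2 (2743 bases) stayed lower at -0.73 ± 0.09 (adjusted p = 0.00297), and Mdm2 (3145 bases) stayed higher at 0.39 ± 0.08 (adjusted p = 0.0127). Bbc3 had -0.45 (adjusted p = 0.088), Cdkn1a -0.22 (adjusted p = 0.215), Zmat3 0.13 (adjusted p = 0.613) and Bax -0.08 (adjusted p = 0.621). Crebbp, higher in the same contrast, has a transcript of 10820 bases. In the Pomc-high tumours the offset left Bbc3 called, at -0.67 (adjusted p = 0.00956).

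**Figure D3:**
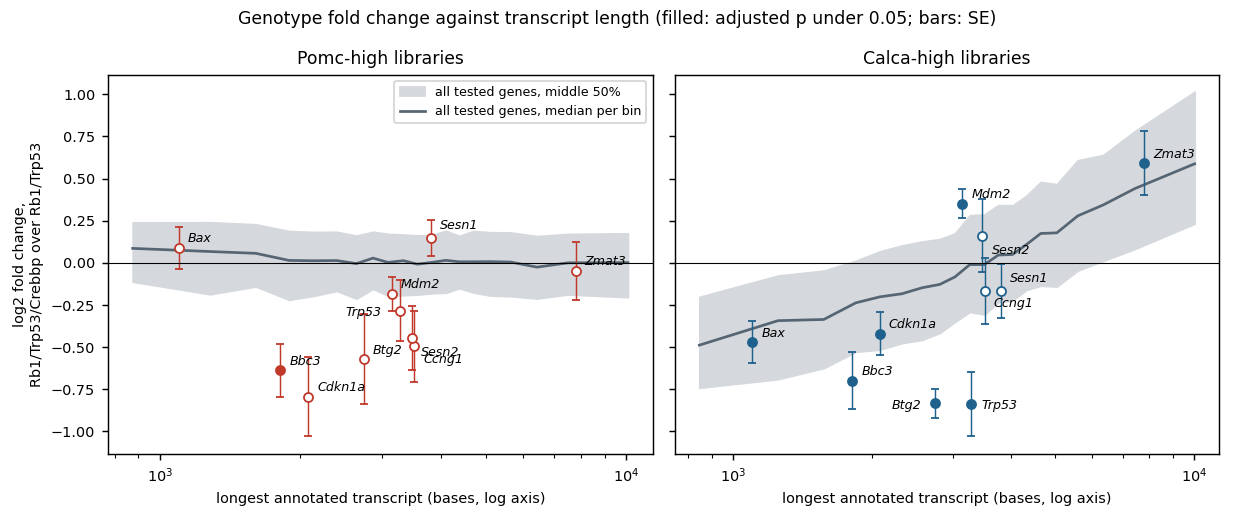
Log2 fold change of Rb1/Trp53/Crebbp over Rb1/Trp53 (± SE) of the 10 genes against the longest annotated transcript (bases, log axis), in Pomc-high and Calca-high tumours; the line is the median of all tested genes per length bin and the band their middle 50%. The line is nearly flat in Pomc-high and climbs in Calca-high. There Bax, Cdkn1a and Zmat3 lie in the band, Trp53, Btg2 and Bbc3 lie below it and Mdm2 lies above it.

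Several lists of tissue markers were lower in the Rb1/Trp53/Crebbp tumours of the Calca-high set. The 8 endothelial markers summed to 34.3 to 47.3 CPM in Rb1/Trp53/Crebbp and 65.9 to 80.5 CPM in Rb1/Trp53, with 6 of 8 called lower. The 8 macrophage markers summed to 71.7 to 215 CPM in Rb1/Trp53/Crebbp and 195 to 237 CPM in Rb1/Trp53, with 3 of 8 called lower, and the 7 fibroblast and pericyte markers to 151 to 426 CPM in Rb1/Trp53/Crebbp and 419 to 689 CPM in Rb1/Trp53, with 0 of 7 called. The sums of these last lists overlapped between genotypes, and those of the others named here did not. The 4 thyroid follicular markers summed to 924 to 1290 CPM in Rb1/Trp53/Crebbp and 2110 to 16900 CPM in Rb1/Trp53, with 4 of 4 called lower. The 3 fat cell markers summed to 5.86 to 9.97 CPM in Rb1/Trp53/Crebbp and 26.1 to 115 CPM in Rb1/Trp53. The 5 neuroendocrine markers, which the tumour cells express, summed to 5260 to 8150 CPM in Rb1/Trp53/Crebbp and 11800 to 15000 CPM in Rb1/Trp53, with 4 of 5 called lower. With the endothelial, macrophage and fibroblast covariate Btg2 alone of the 10 was called, and 306 genes (2.07%) were called in all. The covariate goes with the genotype in these 7 libraries, so this fit cannot tell marker content and genotype apart. Of the 27 genes named in this comparison as called, those of the wider pathway that follow included, Btg2 was again the single one called with the covariate. Trp53 had -0.98 (adjusted p = 0.152) with it and Mdm2 0.20 (adjusted p = 0.412). With all counts thinned to the shallowest library, also chosen after seeing the data, the same 7 genes were called.

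Other p53 targets went both ways in the Calca-high tumours, whereas the upstream regulators that were called all rose. Among 48 other p53 targets 9 rose and 8 fell (35.4% called, against 36.2% of all genes), with a median of 0.03. Of 14 upstream regulators 5 rose and none fell (35.7% called, near the share of all genes), with a median of 0.38. Mdm4, the Mdm2 partner that masks the activation domain of p53, had 77.6 ± 11.5 CPM in Rb1/Trp53/Crebbp (SD, n = 4) and 39.4 ± 8.06 CPM in Rb1/Trp53 (SD, n = 3; 0.99 ± 0.17, adjusted p = 0.00427). Hipk2, a kinase that phosphorylates p53, rose by 1.59 ± 0.37 (adjusted p = 0.0134), and the damage-sensing kinases Atm and Atr rose by 0.70 ± 0.08 (adjusted p = 0.00145) and 0.64 ± 0.09 (adjusted p = 0.00243). With the length offset Mdm4 (0.60, adjusted p = 0.0351) and Hipk2 (1.12, adjusted p = 0.0494) were called, and Atm (0.13, adjusted p = 0.179) and Atr (0.16, adjusted p = 0.258) were not. With the marker covariate Mdm4 had 0.57 (adjusted p = 0.201) and Hipk2 1.82 (adjusted p = 0.166).

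Of the 8 further arrest genes 2 rose and 1 fell (37.5% called, against 36.2% of all genes). Rprm, which encodes reprimo, an inducer of G2 arrest, had 8.29 ± 5.34 CPM in Rb1/Trp53/Crebbp (SD, n = 4) and 0.788 ± 0.259 CPM in Rb1/Trp53 (SD, n = 3; 3.38 ± 0.63, adjusted p = 0.00601). Plk2, a polo-like kinase, rose by 1.08 ± 0.33 (adjusted p = 0.037), a call lost without any of 6 of the 7 libraries (adjusted p 0.0574 to 0.113), and Sfn fell by 1.09 ± 0.24 (adjusted p = 0.0112). Of 13 cell death targets 3 rose and 2 fell (38.5% called). Apaf1, the scaffold of the apoptosome, rose by 0.79 ± 0.14 (adjusted p = 0.00539), and Ei24, Eda2r and Siva1 changed by -0.38, 0.61 and -0.46 with adjusted p of 0.0146, 0.0292 and 0.047. Those calls were lost without T1 of Rb1/Trp53 for Ei24 (adjusted p = 0.0511) and without 5 and 6 of the 7 libraries for Eda2r and Siva1 (adjusted p up to 0.0883 and 0.112), and with the length offset none of the 4 was called.

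Of 22 genes of metabolism and secretion 3 rose and 5 fell (36.4% called, against 36.2% of all genes). They were led by Ak1, an adenylate kinase, at -0.49 ± 0.07 (adjusted p = 0.00273), and Fdxr, ferredoxin reductase, at -0.84 ± 0.16 (adjusted p = 0.00581). Cyfip2 rose by 0.63 ± 0.14 (adjusted p = 0.0101), and Cpt1c, a brain form of carnitine palmitoyltransferase, by 0.64 ± 0.15 (adjusted p = 0.0143; 0.0561 without T3 of Rb1/Trp53). The repair gene Ercc5 rose by 0.32 ± 0.11 (adjusted p = 0.0451), called with only 1 of the 7 libraries left out in turn. With the length offset Ak1, Fdxr and Cpt1c were called and Cyfip2 and Ercc5 were not. Of the 15 relatives 3 rose and 2 fell (33.3% called). Bmf had 20.1 ± 4.66 CPM in Rb1/Trp53/Crebbp and 46.6 ± 8.25 CPM in Rb1/Trp53 (-1.19 ± 0.20, adjusted p = 0.00391; length offset -1.35, adjusted p = 0.00468; marker covariate -0.79, adjusted p = 0.219). Sesn3, another sestrin, rose by 1.07 ± 0.20 (adjusted p = 0.00621), Ccng2, the relative of Ccng1, by 0.43 ± 0.14 (adjusted p = 0.0405), and Bad, another BH3-only gene, fell by 0.57 ± 0.12 (adjusted p = 0.0092). The call of Ccng2 was lost without any of 6 libraries (adjusted p 0.0666 to 0.104), and with the length offset none of these last 3 was called.

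The genotype difference was not the same in both sets for Mdm2 and Bax. The test of this was the genotype-by-set term over all 17 libraries, given as the log2 fold change in Pomc-high tumours minus that in Calca-high tumours, and 22.9% of 15432 genes passed it, 1549 with a positive and 1982 with a negative term. For Mdm2 the term was -0.54 ± 0.14 (adjusted p = 0.0134), with fold changes of -0.18 in Pomc-high and 0.35 in Calca-high tumours. With the length offset it was -0.57 (adjusted p = 0.0144), and without T1 of Rb1/Trp53 its adjusted p was 0.0546. For Bax the term was 0.55 ± 0.18 (adjusted p = 0.0393), with 0.09 in Pomc-high and -0.47 in Calca-high tumours, but the length offset left 0.12 (adjusted p = 0.646), and leaving out any of 10 of the 17 libraries gave adjusted p of 0.0553 to 0.0868. Trp53, called in Calca-high tumours alone, was not shown to differ between the sets (0.54 ± 0.28, adjusted p = 0.166). The same holds for Btg2 (0.26 ± 0.34, adjusted p = 0.622), Cdkn1a (-0.38 ± 0.31, adjusted p = 0.399) and Zmat3 (-0.65 ± 0.29, adjusted p = 0.109). Bbc3, called lower in both sets, had a term of 0.06 ± 0.24 (adjusted p = 0.89). With the length offset the Bbc3 term was -0.20 (adjusted p = 0.585), and its fall in Calca-high tumours was not called (adjusted p = 0.088).

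Of the 14 upstream regulators 6 had a negative term and none a positive one (42.9% called, against 22.9% of all genes). Among them were Atm (-0.93 ± 0.20, adjusted p = 0.00523), Hipk2 (-2.08 ± 0.51, adjusted p = 0.00997), Atr (-0.65 ± 0.17, adjusted p = 0.0114) and Mdm4 (-1.13 ± 0.30, adjusted p = 0.0131). With the length offset Hipk2 was still called (-1.55, adjusted p = 0.0269) and the other 3 were not. Among the 48 other targets 4 terms were positive and 7 negative (22.9% called). The arrest genes Ptprv (-2.05 ± 0.32, adjusted p = 0.000609) and Rprm (-2.80 ± 0.60, adjusted p = 0.00462) had negative terms, as did Plk2 (-1.16, adjusted p = 0.0276) and Gadd45a (-0.56, adjusted p = 0.0456), whose calls were lost without 6 and 14 of the 17 libraries. Positive terms were found for the death genes Ei24 (0.64 ± 0.12, adjusted p = 0.00182), Siva1 (0.87 ± 0.23, adjusted p = 0.0135) and Perp (1.15 ± 0.32, adjusted p = 0.0162), and a negative one for Apaf1 (-0.86 ± 0.21, adjusted p = 0.009). Siva1 and Apaf1 were not called with the length offset.

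Between the sets, 4 of the 10 genes differed. Cdkn1a, Mdm2 and Bbc3 were lower and Ccng1 was higher in Pomc-high than in Calca-high tumours, with genotype in the fit. Over the whole transcriptome 60.1% of 14619 genes were called, 29.2% higher and 30.9% lower, and the median of the 10 was -0.09, against -0.01 over all genes. These libraries are those of the genotype comparisons, so the comparisons share their samples. Whether the sets differ in tissue of origin cannot be told from the labels, which call both pituitary. Besides the markers given above, the 4 thyroid follicular markers summed to 6.27 to 161 CPM in Pomc-high and 924 to 16900 CPM in Calca-high tumours. The differences between the sets below need therefore not be differences among pituitary tumours, and the origin was not tested.

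Cdkn1a ranged from 25.7 to 80.0 CPM with a median of 54.9 in the 10 Pomc-high tumours, and from 118 to 194 CPM with a median of 141 in the 7 Calca-high tumours. It was the single gene of the 10 whose sets did not overlap, as did 23% of all genes, and its fold change was -1.57 ± 0.16 (adjusted p = 1.82e-07), from -1.62 to -1.46 on leaving out each library in turn. Ccng1 ran the other way, with 125 to 342 CPM (median 209) in Pomc-high and 83.5 to 148 CPM (median 116) in Calca-high tumours (0.72 ± 0.17, adjusted p = 0.00115), and its adjusted p was 0.0901 with the covariate of endothelial, macrophage and fibroblast markers. Mdm2 had 62.5 to 89.2 CPM (median 73.0) in Pomc-high and 76.4 to 108 CPM (median 92.1) in Calca-high tumours (-0.29 ± 0.10, adjusted p = 0.0146). In the Rb1/Trp53 tumours alone the Mdm2 difference was -0.02 (adjusted p = 0.877). Bbc3 (-0.29 ± 0.12, adjusted p = 0.0404) had strongly overlapping sets, 9.97 to 22.8 CPM in Pomc-high and 12.2 to 29.6 CPM in Calca-high tumours, and leaving out any of 11 of the 17 libraries ended its call (adjusted p 0.0543 to 0.137), as did upper-quartile scaling (adjusted p = 0.0876). Of the markers in the covariate, 3 of 7 endothelial, 1 of 8 macrophage and 4 of 7 fibroblast markers were also called lower in Pomc-high tumours, against 30.9% of all genes. With the marker covariate Cdkn1a stood at -1.97 (adjusted p = 4.72e-06).

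Trp53 did not differ between the sets beyond its spread, with 19.0 ± 4.50 CPM in Pomc-high (SD, n = 10) and 19.6 ± 7.39 CPM in Calca-high tumours (SD, n = 7; -0.10 ± 0.15, adjusted p = 0.598). Its highest value, 33.1 CPM, and its lowest, 11.8 CPM, both came from Calca-high tumours. Sesn2 (0.40 ± 0.17, adjusted p = 0.0528) and Btg2 (0.37 ± 0.17, adjusted p = 0.0674) missed the threshold, and both passed under upper-quartile scaling (adjusted p of 0.0268 and 0.0397). Zmat3 (-0.15 ± 0.16, adjusted p = 0.453), Sesn1 (0.14 ± 0.10, adjusted p = 0.252) and Bax (-0.09 ± 0.11, adjusted p = 0.497) were not called. For Bax the Rb1/Trp53 tumours alone gave -0.37 (adjusted p = 0.00591) and the Rb1/Trp53/Crebbp tumours alone 0.21 (adjusted p = 0.292).

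Both relatives of Trp53 were lower in Pomc-high tumours, and the wider pathway went both ways. Trp73 had 2.0 to 8.59 CPM in Pomc-high and 18.4 to 51.4 CPM in Calca-high tumours (-3.08 ± 0.24, adjusted p = 6.32e-09), and Trp63, the p63 gene, was low throughout at 0.11 to 5.22 CPM (-2.21 ± 0.34, adjusted p = 2.67e-05). Of 48 other targets 13 were higher and 16 lower in Pomc-high tumours (60.4% called, against 60.1% of all genes). Arrest genes went both ways: Gadd45a (1.70 ± 0.12, adjusted p = 2.36e-09) and Plk3 (1.41 ± 0.22, adjusted p = 2.88e-05) were higher, and Ptprv (-4.44 ± 0.28, adjusted p = 4.73e-10) and Sfn (-2.86 ± 0.28, adjusted p = 1.18e-07) were lower. Of 13 death genes 2 were higher and 6 lower (61.5% called). The lower ones were led by Perp, a membrane protein of desmosomes (-2.23 ± 0.21, adjusted p = 5.86e-08), the autophagy gene Dram1 (-2.11 ± 0.25, adjusted p = 1.29e-06) and Trp53inp1 (-1.40 ± 0.21, adjusted p = 2.04e-05). Aen, an apoptosis-enhancing nuclease, was higher (0.96 ± 0.14, adjusted p = 9.16e-06). Kitl, the ligand of Kit, averaged 2.32 and 2.29 CPM in the Rb1/Trp53/Crebbp and Rb1/Trp53 tumours of the Pomc-high set, against 51.0 and 30.5 CPM in those of the Calca-high set (-4.09 ± 0.25, adjusted p = 1.93e-10), and Thbs1, an inhibitor of vessel growth, was lower too (-2.80 ± 0.27, adjusted p = 1.09e-07). Ddit4, an mTORC1 inhibitor, was lower (-1.63 ± 0.17, adjusted p = 3.02e-07), and the thiamine transporter gene Slc19a2 was higher (0.91 ± 0.10, adjusted p = 2.66e-07).

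Of the 14 upstream regulators 4 were higher and 2 lower in Pomc-high tumours (42.9% called, against 60.1% of all genes). Chek2, the checkpoint kinase that phosphorylates p53, had 18.4 ± 2.07 CPM in Rb1/Trp53/Crebbp and 14.4 ± 2.76 CPM in Rb1/Trp53 of the Pomc-high set, against 5.79 ± 0.218 CPM in Rb1/Trp53/Crebbp and 4.06 ± 0.108 CPM in Rb1/Trp53 of the Calca-high set (SD, n = 4, 6, 4 and 3; 1.74 ± 0.11, adjusted p = 4.09e-10). Ppm1d, the phosphatase that reverses p53 phosphorylation, was lower by a small margin (-0.29 ± 0.07, adjusted p = 0.00212), and Kat5, an acetyltransferase of p53, higher (0.20 ± 0.07, adjusted p = 0.0152). The ubiquitin ligase gene Rfwd2 was lower (-0.19 ± 0.07, adjusted p = 0.0198), a call lost without any of 5 libraries (adjusted p 0.0548 to 0.11). Of 15 relatives 4 were higher and 8 lower (80% called). The BH3-only genes went apart: Bmf was lower (-1.58 ± 0.16, adjusted p = 1.42e-07) and Bcl2l11, which encodes Bim, higher (1.6 ± 0.20, adjusted p = 2.48e-06). Bak1, the pore-forming relative of Bax, was lower (-0.89 ± 0.11, adjusted p = 2.17e-06), as was Btg1 (-0.75 ± 0.11, adjusted p = 9.21e-06).

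The 10 genes were also compared tumour by tumour, after the mean of each genotype in each set had been subtracted from log2 CPM, so that neither the genotype nor the set adds to the result. Over the 17 tumours, 38 of the 45 pairs had a positive Pearson correlation, with a median of 0.25. Cdkn1a and Mdm2 were the closest pair (0.848), followed by Cdkn1a and Ccng1 (0.764) and Mdm2 and Ccng1 (0.714). Bbc3 stood apart from these, with 0.216 to Cdkn1a, 0.132 to Mdm2 and -0.20 to Ccng1, and went with Bax instead (0.68). Trp53 went with Sesn1 (0.68), Mdm2 (0.651), Ccng1 (0.57) and Cdkn1a (0.503), and hardly with Bbc3 (0.10) or Zmat3 (0.143). The points of every pair share a library, its depth and its tissue makeup. In the same measure the summed macrophage markers had -0.65 to Cdkn1a, -0.54 to Mdm2 and -0.32 to Trp53, and the anterior lobe hormone genes 0.588, 0.284 and 0.501 to the same genes. Their part in the correlations was not tested.

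**Figure D4:**
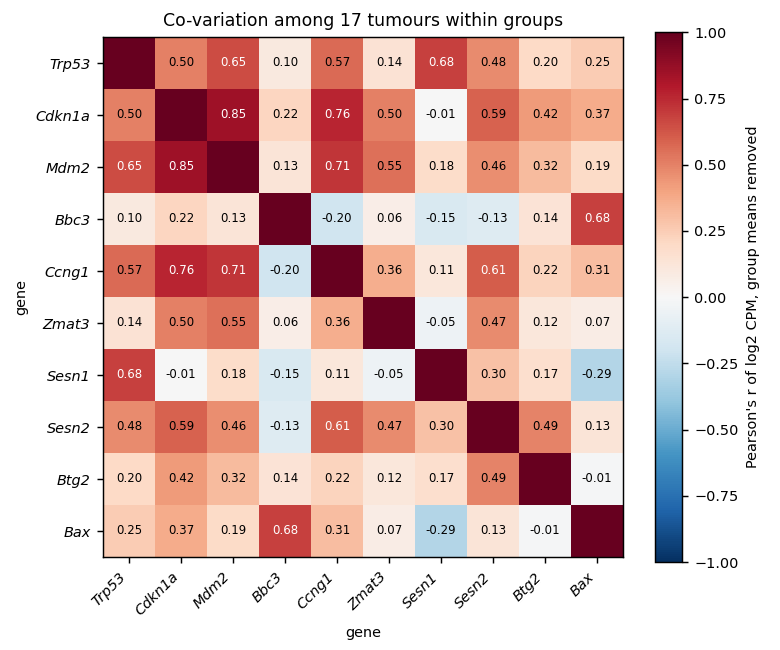
Pearson correlation between the 10 genes over 17 tumours, in log2 CPM with the mean of each genotype and set removed; rows and columns are genes and red is positive. Cdkn1a, Mdm2 and Ccng1 form a red block (0.71 to 0.85), and Bbc3 is red with Bax (0.68) and pale or blue with the rest.

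Of 15431 other genes, those most like Trp53 in this measure were Phkg1 (0.893), Grhl2 (0.863), Nqo2 (0.847), Phlda3 (0.819) and 2810459M11Rik (0.814). Phlda3, a repressor of Akt, is itself a known p53 target, and had 11.4 to 39.6 CPM over the tumours. Phkg1, Grhl2 and 2810459M11Rik were low, at most 12.4 CPM. Without T5 and T6 of Rb1/Trp53, the 2 tumours with the largest deviation of Trp53, the values over 15 tumours were 0.805, 0.791, 0.784, 0.703 and 0.587 in the same order. By rank among all genes Sesn1 stood 67th, Mdm2 102nd, Ccng1 270th and Cdkn1a 512th, and Bbc3 5586th.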

How the data were processed

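Polyadenylated RNA of 17 tumours was sequenced after TRIzol extraction, per the labels' protocols. The authors deposited 1 table of raw read counts per tumour, with 23284 gene symbols. Per the submitters' processing notes, bcl2fastq (1.8.2), TopHat2 (2.0.12), HTSeq (0.6.1) and build mm9 were used. For the annotation, strand setting and read filters the sources used here give nothing. The 5 rows that name no gene were left out (unassigned reads 11.7% to 21.7%, reads not aligned uniquely 8.20% to 18.5% of a table). No 2 of 64 pairs of tables within a genotype held the same library (chi-square per degree of freedom 8.30 or higher).

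Counts were filtered with filterByExpr, scaled by TMM and fitted with the robust quasi-likelihood test of edgeR 4.0.16 in R 4.3.3, tested on simulated data, within each set for genotype and over all 17 libraries for the set (genotype as a term) and for the interaction. P-values were adjusted by Benjamini-Hochberg over all genes of a fit. SEs were taken as the size of a log2 fold change over the root of its F value. CPM are scaled by TMM, and correlations used log2 CPM with a prior count of 2. Named are the 10 genes, up to 4 called genes per p53 list and comparison with the smallest adjusted p, Wrap53 and the 5 genes most like Trp53. One gene that this rule names is not reported here. Other settings were DESeq2 1.42.0, limma-voom (limma 3.58.1), other scalings and filters, the tumour number as a block, a marker covariate, a joint fit of all groups and each tumour left out; the length offset (GENCODE vM21 lengths) and thinned counts were added after seeing the data. The genes and lists were chosen with earlier results of these data known. Lrdd, 9630033F20Rik and Emr1 stand for Pidd1, Tigar and Adgre1, matched by synonym. Figures were drawn with matplotlib 3.10.9.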

Additional observations from a re-analysis of the deposited data

Results flagged for a closer look

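Btg2 in T6 of Rb1/Trp53 stood at 352 CPM, apart from the other 5 Rb1/Trp53 tumours of the Pomc-high set, of which the next highest had 233 CPM. Dixon's test, run on 30 groups of 4 or more tumours, picked out this value alone, and chance picks out about 1 in 20 groups.

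The genotype difference of Mdm2 differed between the sets, by -0.543 (log2, Pomc-high minus Calca-high; edgeR adjusted p = 0.0134), with -0.18 in Pomc-high and 0.35 in Calca-high tumours. That of Bax differed by 0.554 (adjusted p = 0.0393), with 0.09 in Pomc-high and -0.47 in Calca-high tumours. Over all genes 22.9% passed this test, and of the 10 genes 2 did. With the length offset the Bax term was 0.12 (adjusted p = 0.646), and leaving out any of 10 of the 17 libraries ended its call. The Mdm2 term was -0.57 (adjusted p = 0.0144) with that offset, and its call was lost without T1 of Rb1/Trp53 (adjusted p = 0.0546). With the tumour number as a block neither was called.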

How the results depend on the processing

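The 10 libraries of the Pomc-high and the 7 of the Calca-high set limit every call above. Other scalings and filters, limma-voom and thinned counts left the number of the 10 genes called within 1.5 times of the reported one, and shifted the median of all genes by less than 0.1. Tumours with the same number in a set showed little shared variation (7 pairs, correlations -0.154 to 0.196, 1 highest with its own number). Weak correlations over so few pairs cannot tell whether the numbers pair the samples. With the number as a replicate block 354 genes were called in Pomc-high, 2700 in Calca-high, 943 between the sets and 1253 for the interaction, of the 10 genes 0, 2, 0 and 0, and the signs of Zmat3 in Pomc-high (0.18), of Trp53 (0.0252), Mdm2 (0.047), Zmat3 (0.85), Sesn1 (-0.0204) and Bax (0.0639) between the sets and of Bbc3 in the interaction (-0.064) turned. DESeq2 called 1917 genes in Pomc-high, 2 of the 10 there and 6 between the sets, and the joint fit of 4 groups 2 in Pomc-high. The marker covariate gave 306 genes in Calca-high, 4 of the 10 in Pomc-high and 1 in Calca-high, and turned Bax in Pomc-high (-0.00429), Sesn2 (-0.18) and Plk2 (-0.0466) in Calca-high and Sesn2 (-0.0687) and Btg2 (-0.15) between the sets. The length offset gave 2291 genes for the interaction, 3 of the 10 in Calca-high and 1 for the interaction, and turned Bbc3 there (-0.20). Between the sets, Rb1/Trp53/Crebbp tumours alone turned Trp53 (0.20) and Bax (0.21), and Rb1/Trp53 tumours alone Zmat3 (0.18) and Sesn1 (-0.0166). Leaving out each tumour in turn gave 752 to 1214 genes in Pomc-high (752 without T7 of Rb1/Trp53/Crebbp), 3588 to 5312 in Calca-high, 8350 to 8805 between the sets and 2487 to 3849 for the interaction, and 0 to 3, 4 to 7, 3 to 5 and 1 to 3 of the 10 genes. It ran from -0.13 to 0.0652 for Zmat3 and -0.0131 to 0.20 for Bax in Pomc-high, -0.31 to 0.00471 for Sesn1 and -0.0575 to 0.38 for Sesn2 in Calca-high, -0.14 to 0.0624 for Trp53 between the sets, and -0.11 to 0.21 for Bbc3 and -0.12 to 0.51 for Btg2 in the interaction. The cause of these shifts was not tested. Of called named genes 8 of 12 in Pomc-high, 17 of 27 in Calca-high, 25 of 27 between the sets and 12 of 21 for the interaction were called without each tumour in turn, and 2 of 12, 1 of 27, 6 of 27 and 5 of 21 under every other setting.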
